A study of Arabidopsis thaliana with 4 samples.

Results

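The genes described here are the Flowering Locus C (FLC) clade of MADS-box genes, which are FLC, Flowering Locus M (FLM, also named MAF1), MAF2, MAF3, MAF4 and MAF5, with the 2 further MADS-box genes Short Vegetative Phase (SVP) and Suppressor of Overexpression of CO 1 (SOC1). They are 8 of the 37899 genes annotated on chromosomes 1 to 5 of the TAIR10.1 reference and were chosen by locus. Trimethylation of lysine 4 on histone H3 (H3K4me3) was profiled by CUT&Tag, in which an antibody brings a transposase to the mark and the released DNA fragments are sequenced, in roots of Arabidopsis thaliana Col-0. The groups were 2 libraries of plants under osmotic stress (250 mM sorbitol added to 1/2MS medium) and 2 libraries of control plants on 1/2MS alone, all 10 days old and of the same unmodified genotype. The labels give root and the treatment, while the age and the sorbitol concentration are those of the study's methods. For each gene, the peaks that overlapped the span between 1 kb upstream of the transcription start site (TSS) and the end of the gene were collected from every library.

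The MADS-box proteins of the FLC clade bind DNA as complexes with SVP and hold back flowering by repressing the florigen gene FT and its partner in floral induction, SOC1. FLC itself is activated by FRIGIDA together with chromatin factors of the PAF1, SWR1 and H3 methyltransferase complexes, is repressed by the autonomous pathway, and is silenced by Polycomb proteins during vernalization, the response to a long cold period. Col-0 carries a defective FRIGIDA allele and flowers early. H3K4me3 usually marks the 5′ end of genes that are being transcribed, so a peak at a TSS is a common companion of expression but not a measure of it.

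The clade is spread over chromosomes 1 and 5 of TAIR10.1, and MAF2 to MAF5 lie in tandem in the same orientation. FLC (AT5G10140) lies at chr5:3173382-3179448 on the minus strand, FLM (AT1G77080) at chr1:28955483-28960234, MAF2 (AT5G65050, named AGL31 in RefSeq) at chr5:25982254-25986435, MAF3 (AT5G65060) at chr5:25987309-25991412, MAF4 (AT5G65070) at chr5:25992193-25996202 and MAF5 (AT5G65080) at chr5:25997504-26002619, all but FLC on the plus strand. SVP (AT2G22540) lies at chr2:9579647-9583901 on the plus strand and SOC1 (AT2G45660, AGL20 in RefSeq) at chr2:18807505-18811125 on the minus strand. None of the 100-base windows in the spans or peaks of the 8 genes recurred elsewhere in the reference. The spans of MAF3 and MAF4 begin within the end of the gene before them, but none of their peaks reached it.

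The promoters of the clade were compared after the peaks had been seen. Parts of them are shown because FLM, MAF2 and MAF3 share 1 run of bases upstream of the TSS. These 3 genes had a peak at the 5′ end in every library. The window of 300 bases with 250 bases upstream of the TSS was read from the RefSeq TAIR10.1 genome for every gene. FLM, MAF2 and MAF3 share a run of 18 identical bases upstream of the TSS, printed in capitals within 90 bases of each promoter, 5′ to 3′ on the strand of the gene.
FLM, chr1:28955370-28955459, plus strand: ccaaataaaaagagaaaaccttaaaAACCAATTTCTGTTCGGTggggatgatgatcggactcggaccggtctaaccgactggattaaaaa
MAF2, chr5:25982044-25982133, plus strand: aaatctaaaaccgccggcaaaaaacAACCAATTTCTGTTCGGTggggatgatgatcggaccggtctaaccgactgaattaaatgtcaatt
MAF3, chr5:25987165-25987254, plus strand: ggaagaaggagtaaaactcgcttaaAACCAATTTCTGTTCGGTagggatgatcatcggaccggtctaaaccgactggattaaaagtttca
This run occurred in 3 of 27444 promoters of protein-coding genes, searched on both strands, and these were the promoters of FLM, MAF2 and MAF3. It began at −88 in FLM, −185 in MAF2 and −119 in MAF3, counted from the TSS. The run lay before the start of every peak of FLM and MAF2. At MAF3 it lay within the peaks of stress replicate 2 and control replicate 2 only. MAF4 and MAF5 do not hold it and share a different run of 20 bases, which occurred in 2 of the 27444 promoters, again in capitals below.
MAF4, chr5:25992025-25992114, plus strand: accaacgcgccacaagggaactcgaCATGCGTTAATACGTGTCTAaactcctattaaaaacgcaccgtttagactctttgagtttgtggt
MAF5, chr5:25997367-25997456, plus strand: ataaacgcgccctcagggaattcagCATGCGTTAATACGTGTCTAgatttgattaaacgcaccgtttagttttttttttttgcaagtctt
Whether either run bears on the mark was not tested. FLC holds neither run, and the longest run that all 6 promoters of the clade have in common was 5 bases. Over the 300-base windows, the most alike pair was FLM and MAF3 with 58.4% identical columns, followed by MAF4 and MAF5 with 53.9% and FLC and MAF4 with 52.5%. MAF2 and MAF3 had 47.3% and FLM and MAF2 46.2%, both below FLC and MAF4, so the pairs among these 3 genes were not all more alike than others. A CArG box, a sequence that MADS-box proteins bind, was searched only in its strict form of CC, 6 bases of A or T, and GG. This form was not matched in any of the 8 windows on either strand, and 3.05% of 27443 promoters of the same length hold a match. Looser forms were not searched, so the windows may hold other sites for these proteins.

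Depth was 15974955 and 25714827 fragments in stress replicates 1 and 2, against 9011630 and 6396842 fragments in control replicates 1 and 2. Both stress libraries were deeper than both control libraries, so depth and condition cannot be told apart. Values are therefore given as the pileup, the number of fragments stacked over the summit of a peak, per 1000000 fragments of the library (FPM), a scaling that removes any change common to the whole genome. In bulk roots, fewer cells with the mark and less of the mark per cell cannot be told apart. Of markers of root cell types, 4 of 13 had a peak in every library (PLT2, SHR, WER and TIP2;3) and 6 of 13 had none, GL2, COBL9 and WOX5 among them. Of markers of leaf, shoot and floral cells, 0 of 13 had a peak in every library and 11 of 13 had none. Of all 27444 protein-coding genes, 54.3% had a peak in every library and 32.1% had none. Neither set of markers was thus marked more often than genes in general. The sources do not say whether the libraries of a group came from separate plants, so p-values measure only the spread between these libraries.

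H3K4me3 peaks were found in every library at 4 of the 8 genes, FLM, MAF2, MAF3 and MAF5, and in some libraries at the other 4. Among all 27444 protein-coding genes, 54.3% had a peak in the span in every library and 32.1% had one in no library, against 0 of the 8. With the span cut to 1 kb downstream of the TSS, 1 of the 8, FLC, had a peak in no library. The tallest peaks were those of MAF2, FLM and MAF3, which began near the TSS and ran into the gene. The peaks of the other genes were lower. Those of MAF4 and MAF5 lay upstream of the TSS, those at FLC at and beyond the 3′ end, and those of SVP and SOC1 inside the gene, although the SVP peak of control replicate 1 also began near the TSS, at 23.

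**Figure D1:**
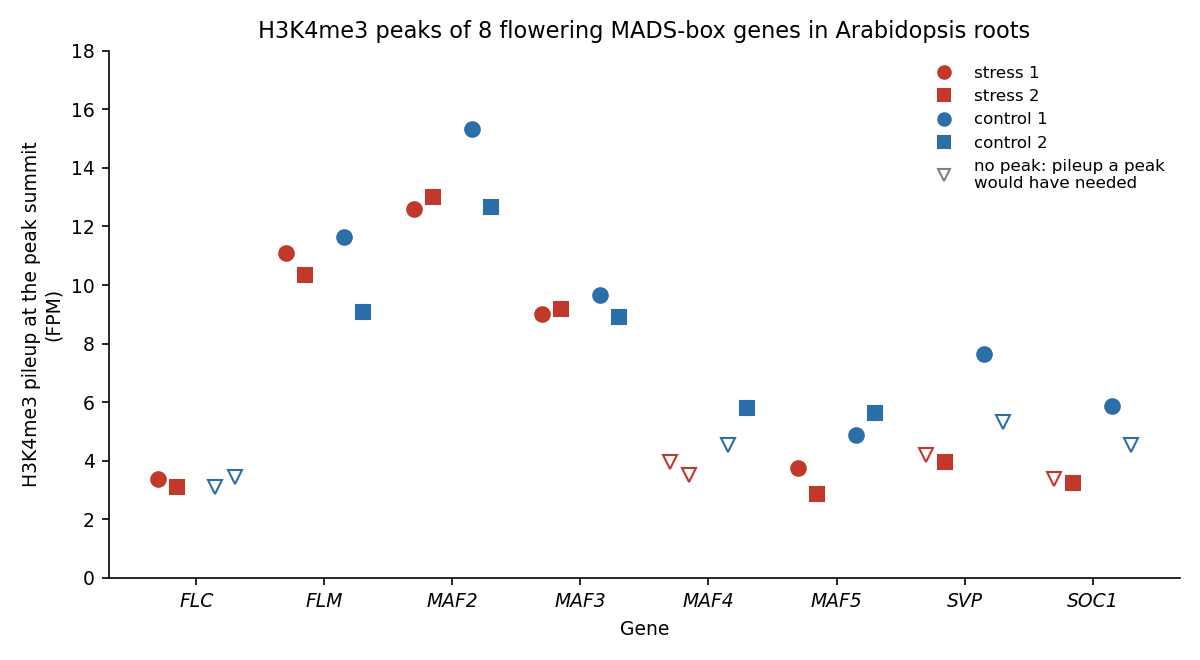
Pileup at the highest summit of each gene, in FPM, in each library (filled symbols, stress to the left of control). Open triangles mark libraries with no peak and give the pileup that a peak would have needed there. MAF2, FLM and MAF3 have a peak of 8.91 FPM or more in every library, and no other gene reaches 8 FPM in any.

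**Figure D2:**
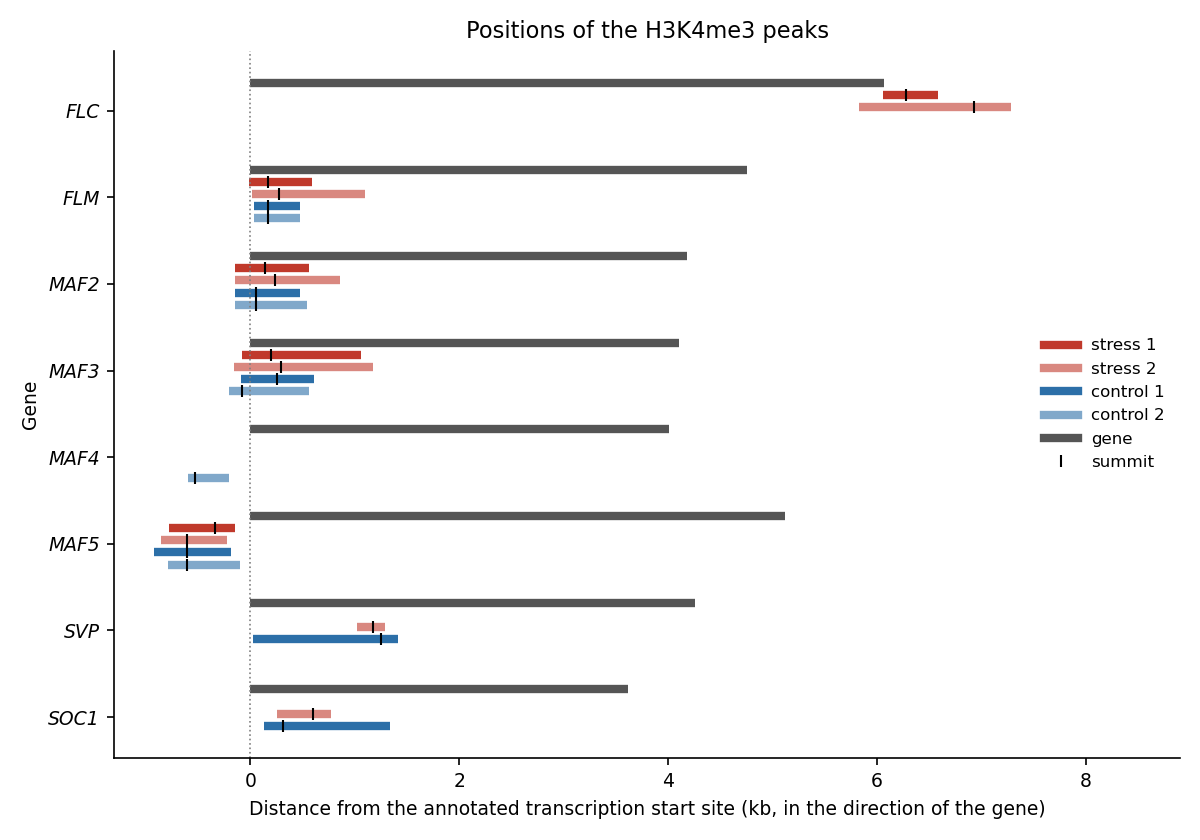
Extent of the peaks in kb from the annotated TSS, in the direction of the gene, with a black tick at each summit and the gene in grey. The peaks of FLM, MAF2 and MAF3 start close to the TSS, those of MAF5 end before it, and those at FLC lie at and beyond its 3′ end.

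MAF2, a repressor that prevents flowering after short cold spells, carried the tallest peak of the clade. Its pileup was 12.6 and 13.0 FPM in stress libraries, against 15.3 and 12.7 FPM in control libraries. The groups overlapped, with the lower control library between the stress libraries. The peaks began at −149 or −148 in all 4 libraries and had their summits at 140 and 240 bases downstream of the TSS under stress, against 60 and 56 bases in control. Their enrichment over the local background, as deposited, was 3.80- and 4.09-fold under stress, against 3.98- and 3.51-fold in control. This placed MAF2 above 54.7% and 64.3% of all peaks in the stress libraries, against 71.9% and 53.1% in the control libraries, so that it was a peak of middle height.

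FLM, which through its splice forms links flowering to ambient temperature, had a pileup of 11.1 and 10.3 FPM in stress libraries, against 11.7 and 9.07 FPM in control libraries. Both stress values lay between the control values. The summits stood at 174 and 275 bases under stress, against 168 and 175 bases in control, all downstream of the TSS. Enrichment was 3.77- and 3.74-fold under stress, against 3.83- and 2.71-fold in control. The summits of 3 of the 4 libraries were close together, that of stress replicate 2 lay farther into the gene, and the lowest enrichment came from control replicate 2, the shallowest library. Only the peak of stress replicate 1 included the TSS base itself, by starting at −12, while the others began at 13 in stress replicate 2 and at 38 in both control libraries.

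MAF3, like MAF2 a repressor of flowering, had a pileup of 9.01 and 9.18 FPM in stress libraries, against 9.65 and 8.91 FPM in control libraries. The stress values again lay between the control values. Its enrichment was 3.70- and 3.95-fold under stress, against 3.59- and 2.87-fold in control. The peak covered 25.9% and 28.7% of the gene under stress, against 14.9% and 13.7% in control, and was the longest of the clade at the TSS. In the stress libraries the order of the levels was MAF2, FLM and MAF3 with no overlap between neighbours, whereas in control the values of FLM and MAF3 overlapped.

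**Figure D3:**
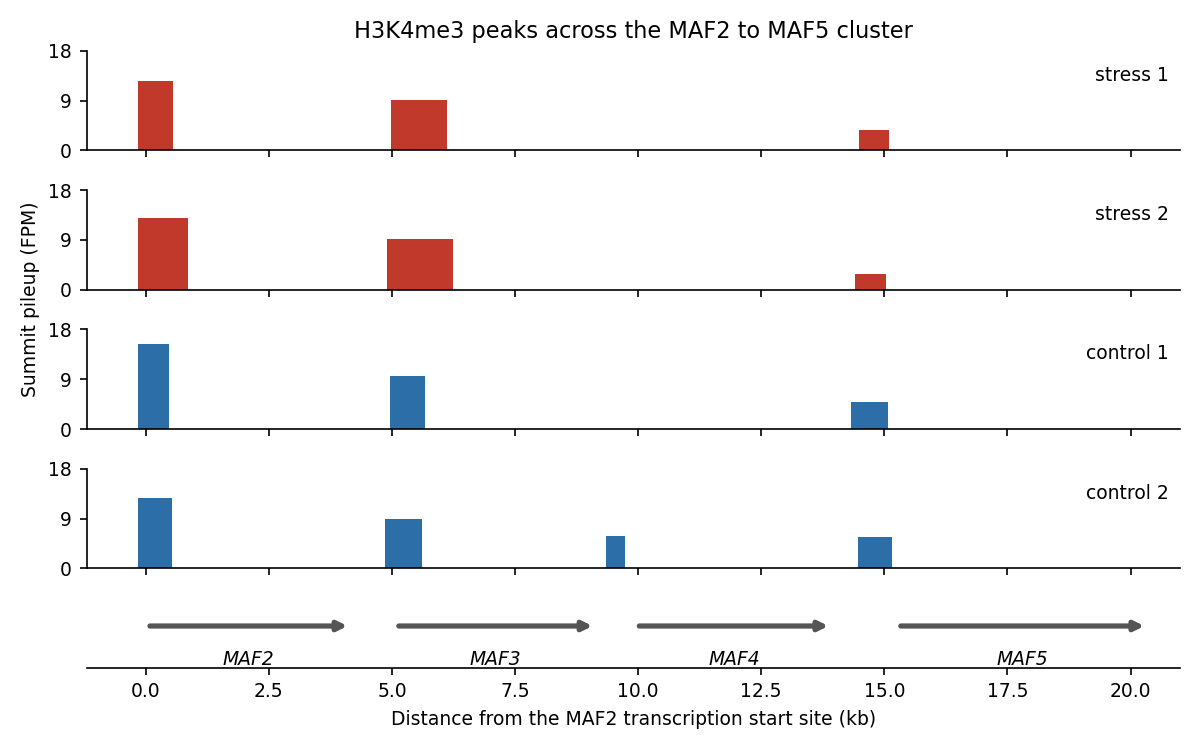
Peaks across the tandem cluster of MAF2 to MAF5 in the 4 libraries, stress above control, by distance from the MAF2 TSS. Each box spans 1 peak, and its height is the pileup at the highest summit, in FPM. MAF2 and MAF3 carry a peak over their 5′ ends in every library, MAF4 carries a small upstream peak in control replicate 2 only, and the peak before MAF5 is lower in both stress libraries.

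MAF4 and MAF5, the last genes of the tandem cluster, differed from MAF2 and MAF3 in having no peak over the TSS in any library. At MAF4, which also represses flowering, the only peak was 393 bp long with 5.78 FPM and 2.55-fold enrichment in control replicate 2, between −597 and −205. None was called in either stress library or in control replicate 1. Against the background of that peak, a call would have needed 3.94 and 3.50 FPM in the stress libraries, against 4.55 FPM in control replicate 1. A signal of the height seen in control replicate 2 would thus have passed in the other 3 libraries. One below the pileup needed in a library would not have been called there.

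MAF5, a member of the clade whose transcript is known to go up with vernalization, in contrast to FLC, had a peak in every library. Its pileup was 3.76 and 2.88 FPM in stress libraries, against 4.88 and 5.63 FPM in control libraries. Both stress values were below both control values. The mean was 3.32 ± 0.621 FPM under stress and 5.26 ± 0.527 FPM in control (SD, n = 2 each), among the lowest 2.02% of all regions by mean level. The whole peak lay upstream of the gene, from −773 to −147 and from −855 to −226 in stress libraries, against −917 to −185 and −785 to −100 in control libraries. It overlapped no annotated gene and lay between the end of MAF4, chr5:25996202, and the start of MAF5, chr5:25997504. Whether the peak belongs to either gene was not tested. Its summits were at −340 and −603 under stress, against −608 and −603 in control, so 3 of the 4 libraries placed it within a few bases. The 200 bases around the summit of control replicate 2 are printed because this is the only peak of the 8 genes that passed the test between the groups described further on, with the 10 bases at the summit in capitals.
MAF5 upstream peak, chr5:25996801-25997000, plus strand: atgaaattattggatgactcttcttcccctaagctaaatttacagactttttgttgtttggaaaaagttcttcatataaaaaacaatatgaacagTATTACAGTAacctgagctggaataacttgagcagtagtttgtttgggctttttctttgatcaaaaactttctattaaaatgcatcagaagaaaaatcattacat

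At FLC, the central repressor of the pathway, no peak lay within 1 kb of the TSS in any library. The only peaks in its span were at the opposite end of the gene, in stress libraries. They had 3.38 FPM and 2.95-fold enrichment in stress replicate 1, from 6060 to 6583 bases downstream of the FLC TSS, and 3.11 FPM and 2.27-fold in stress replicate 2, from 5832 to 7285. They covered 0.115% and 3.87% of the gene, and both summits fell beyond its 3′ end. Both peaks covered the start of the antisense non-coding RNA gene AT5G01675, at chr5:3173371-3179600 on the plus strand, which runs through FLC, and that of stress replicate 2 also covered the TSS of the neighbour AT5G10130, at chr5:3171266-3172701 on the minus strand. The signal therefore belongs to a region that 3 genes share, and it cannot be assigned to FLC.

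No peak was called there in control libraries, where one would have needed 3.11 and 3.44 FPM at the background of the stress peaks. The limit in control replicate 1 was about level with the value of stress replicate 2 and below that of stress replicate 1, and the limit in control replicate 2 was above both. At this assumed background, a peak as high as that of stress replicate 1 would have been called in control replicate 1 and not in control replicate 2. After all peaks were scaled to the depth of the smallest library, control replicate 2, the peak of stress replicate 1 was still called and that of stress replicate 2 was not. The assumed background was higher than the local background of the peak in stress replicate 1. Whether a peak of that height would have been called in control replicate 2 was therefore not settled.

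SVP, the partner of the FLC clade in repression, had a peak in 1 library of each group. Its pileup was 3.97 FPM in stress replicate 2, against 7.66 FPM in control replicate 1, with 1.97- and 2.70-fold enrichment. Both summits lay in intron 1, at 1175 and 1252 bases from the TSS, in a peak of 269 bp under stress and of 1392 bp in control. In the libraries without a peak, one would have needed 4.19 FPM in stress replicate 1, against 5.32 FPM in control replicate 2. The deepest library and the deeper control library thus carried the call, and the height in control replicate 1 would have passed in every library.

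SOC1, a promoter of flowering that FLC and SVP repress, showed the same distribution over libraries. Its pileup was 3.23 FPM in stress replicate 2, against 5.88 FPM in control replicate 1, with 2.25- and 2.60-fold enrichment. The peaks were 523 bp and 1209 bp long, with summits 606 bases from the TSS, in intron 1, under stress and 315 bases from it, in exon 1, in control. A call would have needed 3.38 FPM in stress replicate 1, against 4.53 FPM in control replicate 2. With 1 value in each group, neither SVP nor SOC1 could be tested.

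To ask whether osmotic stress changed the mark at these genes, log2 FPM was compared with limma in the 11925 regions with a peak in every library, and the p-values were adjusted over all of them. The peak upstream of MAF5 fell under stress, to a ratio of 0.627 (95% interval 0.478 to 0.822), a log2 change of −0.67 (SE 0.20, adjusted p = 0.00746 by limma). MAF2 had a log2 change of −0.12 (95% interval −0.37 to 0.12, limma adjusted p = 0.506), MAF3 one of −0.03 (−0.31 to 0.25, limma adjusted p = 0.911) and FLM one of 0.06 (−0.21 to 0.33, limma adjusted p = 0.797). Of the 4 genes tested, 1 was lower and 0 were higher, and by limma on pileup 0 were higher at an unadjusted p below 0.05 too. By limma on fold enrichment 0 were higher, and 1, MAF3, had an unadjusted p below 0.05 with a change above 0. Across all regions, 11.9% were lower and 10.2% were higher, with a median log2 change of 0.01. A single lower gene of 4 is not set apart from that background. The other 4 genes entered no test because at least 1 library lacked their peak.

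The peak of MAF5 was low, and its call was lost with fold enrichment and without either of 2 libraries. Its pileup ran in the reverse order of depth over the 4 libraries, from 2.88 FPM in the deepest to 5.63 FPM in the shallowest, and the local background around it ran the same way, at 0.989 and 0.835 FPM under stress, against 1.12 and 1.22 FPM in control. Relative to that background, the peak was enriched 3.63- and 3.34-fold under stress, against 4.05- and 4.20-fold in control, a log2 change of −0.25 that did not pass (limma adjusted p = 0.119). In the lowest 10% of regions by level, which hold MAF5, 16.5% were lower and 7.05% higher. Without stress replicate 2 the log2 change was −0.48 (limma adjusted p = 0.217) and without control replicate 2 it was −0.57 (limma adjusted p = 0.109). The part of depth in this difference was not tested, and an exact permutation test of 2 against 2 libraries cannot give a two-sided p below 0.333.

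**Figure D4:**
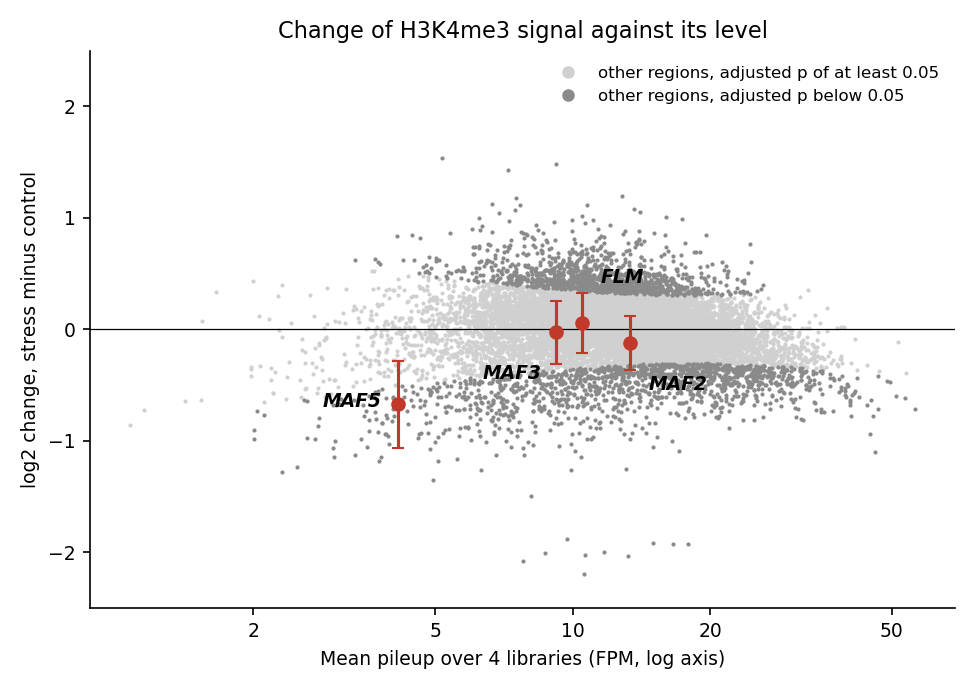
Log2 change of FPM, stress minus control, against the mean pileup over the 4 libraries (log axis) for 11925 regions. The 4 genes tested are in red with 95% intervals. MAF2, MAF3 and FLM lie near 0 in the middle of the cloud, and MAF5 lies at −0.67 among the low regions.

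Peak length tells how far along the DNA the mark was called. At MAF3 the peak was 1146 and 1337 bp long in stress libraries, against 703 and 768 bp in control libraries. At FLM it was 605 and 1090 bp under stress, against 440 and 439 bp in control, and at MAF2 713 and 1007 bp under stress, against 624 and 691 bp in control. At MAF5 alone the order was turned, with 627 and 630 bp under stress, against 733 and 686 bp in control. The groups did not overlap at any of the 4 genes, but deeper libraries called longer peaks, the median peak being 967 and 1000 bp long in stress libraries, against 830 and 772.5 bp in control libraries. Lengths were therefore centred on each library's median before the test.

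After centring, none of the 4 genes passed as longer or as shorter, where 0.738% of all regions were longer and 0.109% shorter. The centred log2 change was 0.38 for MAF3 (95% interval 0.04 to 0.73, limma adjusted p = 0.176) and −0.54 for MAF5 (−0.84 to −0.24, limma adjusted p = 0.0985), and these 2 had an unadjusted p below 0.05. It was 0.52 for FLM (−0.18 to 1.22, limma adjusted p = 0.304) and −0.0021 for MAF2 (−0.50 to 0.49, limma adjusted p = 0.995). With lengths as deposited, MAF3 passed as longer, at a log2 change of 0.75 (by limma, adjusted p = 0.0423), while the change of MAF5 was −0.17 (limma adjusted p = 0.291). In that setting 1452 of 11925 regions passed as longer, so MAF3 is not set apart from them.

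The genes that act on the FLC clade or with it were examined as a list of 58 flowering genes, of which 42 had a region with a peak in every library. Of these 42, 6 were higher and 9 were lower under stress, against 10.2% higher and 11.9% lower among all regions, with 22 changes above 0 and 20 below it. The median log2 change was 0.0079, against 0.0122 over all regions. With fold enrichment, 6 were higher and 2 lower, where 1130 of 11925 regions were higher and 684 lower. None of the calls held with missing values filled. That setting called 0 of 13203 regions in either direction, so it says nothing about these genes in particular. Of the 6 other MADS-box genes of the SVP and SOC1 clades, 3 had no peak in any library. These were AGL24, a relative of SVP that promotes flowering, and AGL14 and AGL72 of the SOC1 clade, and AGL19 had one of 1.91 FPM in stress replicate 2 only. AGL42, a SOC1-clade gene, had 13.0 and 13.7 FPM in stress libraries, against 17.0 and 16.3 FPM in control libraries, and was lower (log2 change −0.32, limma adjusted p = 0.0444). This call was lost without any 1 of the 4 libraries (limma adjusted p = 0.0948 to 0.207), and with fold enrichment the change of AGL42 turned to 0.16 (limma adjusted p = 0.334). AGL71 had 16.0 and 13.3 FPM under stress, against 12.9 and 13.4 FPM in control, a log2 change of 0.15 (limma adjusted p = 0.408), and passed as higher with fold enrichment at 0.36 (limma adjusted p = 0.0173). The first peak by chromosome position in the span of AGL71 had summits between −1353 and −1218. For AGL42 the summits of the first peak were at −1279 and 393 under stress, against −1278 and 263 in control. These need not be the peaks whose FPM is given, so the place of the tested signal was not established for either gene.

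Activators of FLC that act through chromatin held 3 of the 6 higher genes. VIP5, a subunit of the PAF1 complex, had 16.1 and 14.3 FPM in stress libraries, against 9.65 and 9.22 FPM in control libraries, a log2 change of 0.69 (SE 0.13, limma adjusted p = 1.31e-05). ARP6, a subunit of the SWR1 complex that exchanges histone H2A.Z, had 16.6 and 16.1 FPM under stress, against 10.9 and 10.6 FPM in control (log2 change 0.61, limma adjusted p = 7.1e-05). ATX2, an H3K4 methyltransferase, had 15.5 and 14.7 FPM under stress, against 11.7 and 11.3 FPM in control (log2 change 0.40, limma adjusted p = 0.0126). Of the 10 genes of this group, 3 were higher and 0 lower, where 10.2% of all regions were higher and 11.9% lower, and 7 of the 10 changes were above 0. With fold enrichment, 2 were higher, VIP5 and ATX2, and 1 was lower, PIE1 (−0.33, limma adjusted p = 0.0408), while ARP6 did not pass (0.25, limma adjusted p = 0.0949). The call for ATX2 was also lost without stress replicate 1, stress replicate 2 or control replicate 2 (limma adjusted p = 0.0985, 0.0524 and 0.084). In the FRIGIDA group of 5, 1 was higher and 1 lower. The lower one was the region assigned to FRI, with 24.8 and 16.7 FPM under stress, against 27.6 and 26.6 FPM in control (log2 change −0.41, limma adjusted p = 0.00991). With fold enrichment neither of these passed, FRI being at −0.27 (limma adjusted p = 0.0985). Without stress replicate 2, FRI was at −0.13 (limma adjusted p = 0.531), and its call was also lost without control replicate 1 or control replicate 2 (limma adjusted p = 0.129 and 0.0803). The first peak by chromosome position in the span of FRI had summits between −657 and −499, so the change cannot be placed at the TSS.

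Repressors of FLC moved in both directions. In the autonomous pathway, 2 of 7 genes were higher and 1 was lower, and the same 3 genes passed with fold enrichment. FY, a 3′-end processing factor, had 16.0 and 14.7 FPM in stress libraries, against 9.88 and 9.22 FPM in control libraries (log2 change 0.69, limma adjusted p = 1.18e-05). FCA, the RNA-binding protein that works with FY, had 19.0 and 19.3 FPM under stress, against 14.3 and 14.9 FPM in control (log2 change 0.39, limma adjusted p = 0.00934). LD, a homeodomain protein, had 30.0 and 22.2 FPM under stress, against 35.6 and 37.0 FPM in control, and was lower (log2 change −0.49, limma adjusted p = 0.00362). The first peak by chromosome position in its span had a summit 6092 bases downstream of the TSS in stress replicate 1. In stress replicate 2 this summit was 71 bases downstream, against −12 and −53 in control. That peak need not be the one whose FPM is given, so the place of the highest point was not compared between libraries. FY passed with any 1 library left out, whereas FCA and LD lost their calls without stress replicate 2, control replicate 1 or control replicate 2, with limma adjusted p = 0.0565 to 0.103 for FCA and 0.0849 to 0.137 for LD.

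Of the vernalization and Polycomb genes, 10 of 11 were tested, 0 were higher and 3 were lower, where 11.9% of all regions were lower. With fold enrichment none of the 3, VRN1, CLF and VEL1, passed. VRN1 was then at −0.19 (limma adjusted p = 0.21) and CLF at −0.21 (limma adjusted p = 0.142). VIN3, which cold induces, had no peak in any library. VEL1, a relative of VIN3, had 13.6 and 13.8 FPM in stress libraries, against 19.0 and 17.8 FPM in control libraries (log2 change −0.42, limma adjusted p = 0.00514), and did not pass with fold enrichment (−0.09, limma adjusted p = 0.564) or without control replicate 1 (−0.38, limma adjusted p = 0.0788). Among repressors outside the clade, 2 of 6 tested were lower and 0 higher. These were the FT repressors TEM1, with 23.0 and 20.6 FPM under stress, against 27.2 and 29.2 FPM in control (log2 change −0.37, limma adjusted p = 0.0204), and TEM2, with 15.8 and 16.3 FPM under stress, against 22.3 and 19.1 FPM in control (log2 change −0.37, limma adjusted p = 0.0174). With fold enrichment neither passed, TEM1 being at −0.20 (limma adjusted p = 0.168) and TEM2 on the other side of 0, at 0.044 (limma adjusted p = 0.802). The call for TEM2 was also lost without control replicate 1 (limma adjusted p = 0.296), and that for TEM1 without stress replicate 2, control replicate 1 or control replicate 2 (limma adjusted p = 0.0964 to 0.253).

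Of 11 genes of photoperiod, florigen and floral identity, 8 had no peak in any library, FT, TSF, LFY and AP1 among them, where 32.1% of all protein-coding genes had none. GI and CO, both of the photoperiod pathway, were tested. GI was lower on FPM (log2 change −0.31, limma adjusted p = 0.0481) but at 0.033 with fold enrichment (limma adjusted p = 0.844), and CO did not pass on FPM (0.01, limma adjusted p = 0.966) but was higher with fold enrichment (0.32, limma adjusted p = 0.0358). The call for GI was also lost without stress replicate 2, control replicate 1 or control replicate 2 (limma adjusted p = 0.105 to 0.343). The first peak by chromosome position in the span of CO had its summit 3021 bases downstream of the TSS in all 4 libraries. The signal tested for CO therefore cannot be placed at the TSS. Fewer of the tested genes of the flowering list passed as lower without stress replicate 2, control replicate 1 or control replicate 2. Fewer of all regions did too, and each of these fits keeps 1 library in a group.

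**Figure D5:**
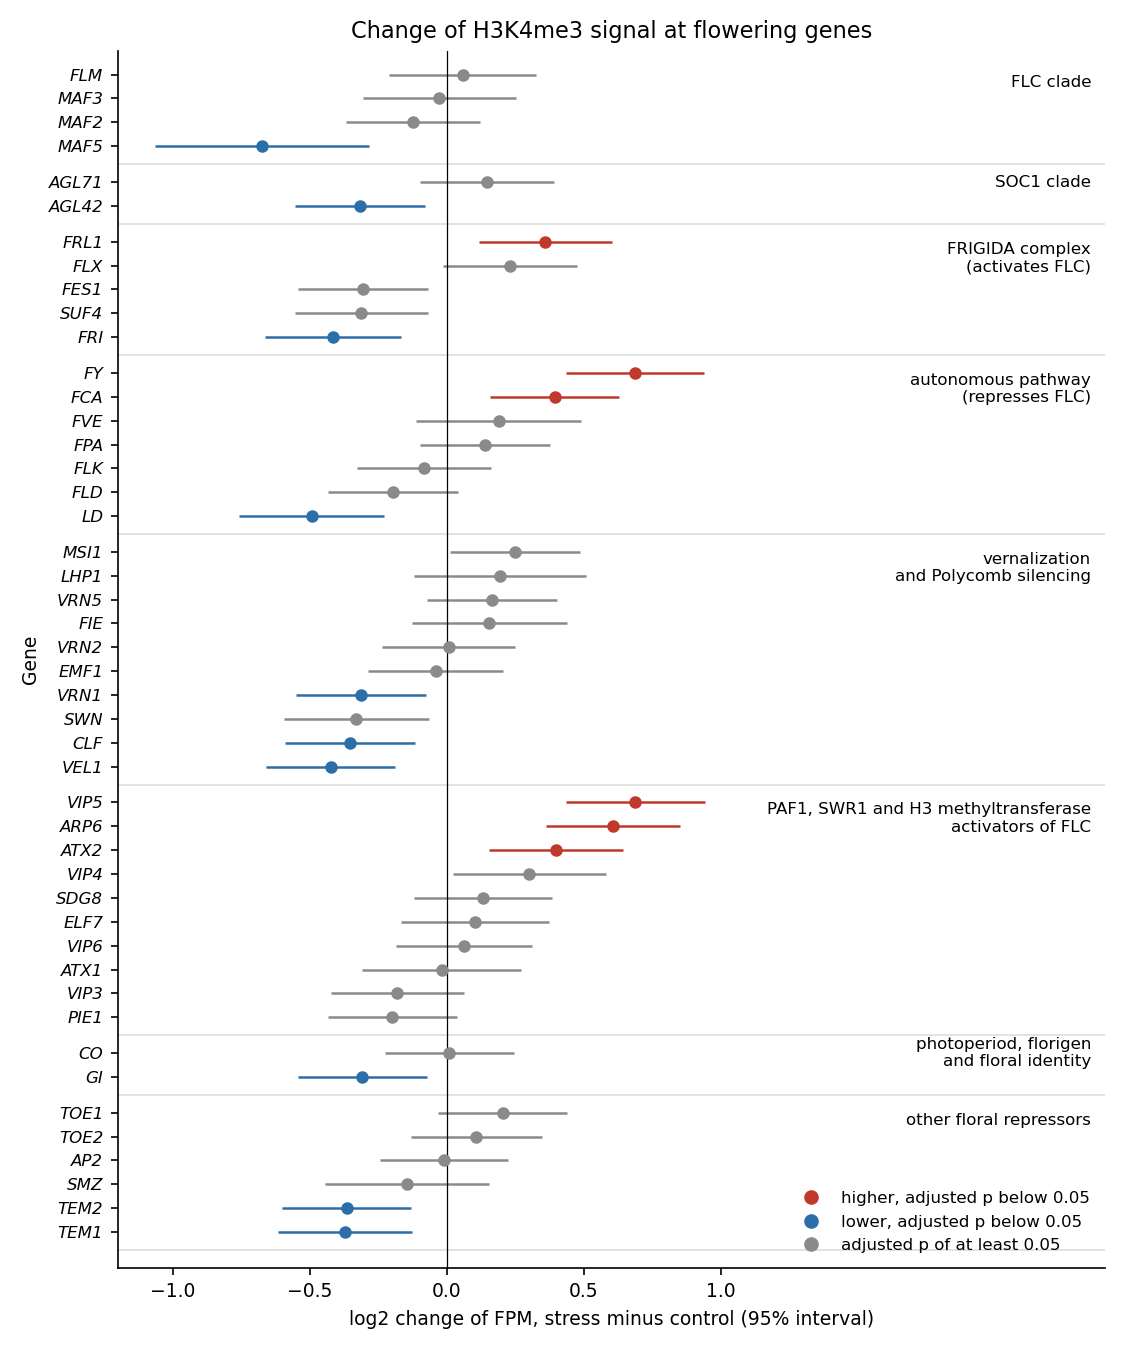
Log2 change of FPM, stress minus control, with 95% intervals, for the 4 tested genes of the FLC clade and the 42 tested genes of the flowering list, by role. Red marks higher and blue lower genes at an adjusted p below 0.05. The 3 red genes among the activators VIP5, ARP6 and ATX2 and the blue MAF5 stand farthest from 0 in their groups.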

How the data were processed

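H3K4me3 was profiled in 2 stress and 2 control CUT&Tag libraries, and 4 peak tables were analysed. Per the file headers, the authors ran MACS 2.2.7.1 separately for every library on paired fragments and without a control library, keeping all duplicates, with a p cutoff of 1e-05 and a local background over 10000 bp. The effective genome size was set to 2.7e+09 bp, which is larger than the genome of Arabidopsis. Per the labels' processing notes, fastp 0.19.7 and Bowtie2 2.3.5.1 were used with TAIR10. For each peak the authors deposited the pileup, a signal counted in stacked fragments and left unscaled, the fold enrichment, a ratio of pileup to local background with 1 added to each, the −log10 of the p-value and q-value, and the length in bp.

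Pileup was scaled to 1000000 fragments (FPM) with the header totals. Overlapping peaks on chromosomes 1 to 5 were merged into 16070 regions, of which 11925 had a peak in every library. A gene took the region over its TSS or, failing that, the nearest region overlapping its span. Log2 values were compared with limma 3.58.1 (lmFit, eBayes with a trend; R 4.3.3), two-sided, with Benjamini-Hochberg adjustment over all regions and a threshold of 0.05. The pileup a peak would have needed was computed from the Poisson p at the background of the peaks called elsewhere and covers counting error only. Tables were handled in Python 3.11.15 (pandas 2.3.3, scipy 1.17.1). The limma fit on FPM was first tested on simulated data, while the fits on length and fold enrichment and the other alternatives were not. The authors' fold and p-value columns served for description and for the alternatives only.

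The genes and lists were chosen with earlier results of these data known. The text names all 8 genes, up to 5 higher and 5 lower genes of the flowering list by size of change, its SVP- and SOC1-clade genes, and neighbours that share a region. Other genes are named only as counted examples. The shared promoter runs were searched after the values had been seen. Replicate numbers did not pair the libraries, as same-numbered libraries deviated with a correlation of −0.0035.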

Additional observations from a re-analysis of the deposited data

How the results depend on the processing

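Alternatives were fold enrichment, division by each library's median, a −log10 q of at least 10, regions present in at least 3 libraries with missing values set to the lowest pileup, gene windows, no trend, the replicate block, lengths as deposited and leaving out each library. Removal of the trend of change with level was added after seeing the data. Of the genes with lower signal, 1 in the comparison as reported, 0 were left with fold enrichment and 0 with missing values filled, and between 0 and 1 with a library left out. MAF5 changed by −0.25 with fold enrichment (limma adjusted p = 0.119), by −0.67 with filling (0.29), by −0.53 without the level trend (0.021) and by between −0.87 and −0.48 with a library left out. With the replicate block it kept −0.67 (0.0111), and no call on the 8 genes changed, while AGL42 (limma adjusted p = 0.0528), VRN1 (0.0668) and GI (0.0599) lost theirs. Of longer peaks, 1 was called with lengths as deposited against 0, where 1452 of 11925 regions passed as longer against 88 after centring. Without control replicate 1, a fit that keeps 1 control library, the centred length of MAF5 changed by −0.58. Of the flowering list, higher genes numbered 0 with filling and 5 to 8 in the other settings with all 4 libraries. Lower genes numbered 0 with filling and 2 with fold enrichment, where 684 of 11925 regions were lower. Without a trend in eBayes they numbered 5, where 1281 of 11925 regions were lower. With a library left out, a group keeps 1 library, and lower genes were fewer except without stress replicate 1. With fold enrichment 3 of the 9 lower genes turned to the other side of 0, AGL42 (0.16), TEM2 (0.044) and GI (0.033), none of them passing there, and AGL71 and CO passed as higher. The sign of MAF5 was the same in every setting, but many settings could not turn it. Filling, no trend, the replicate block, the q limit and gene windows return the same signal change of −0.67. Both stress values lay below both control values, so leaving out a library could not turn the sign either. What causes these shifts was not tested. With a −log10 q of at least 10, 3 genes kept a peak in every library and 1 had none, and at a fold enrichment of at least 4 these counts were 0 and 6. Filling left 0 of 13203 regions called in either direction. Depth limits the statements on MAF4, FLC, SVP and SOC1, where a missing peak sets only an upper limit on the pileup.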
